A study of Mus musculus with 12 samples.

Results

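The 152 genes described here are the solute carrier genes of isolated mouse cerebral vessels outside the best studied blood-brain barrier transporters. They were selected on their measured level: all genes whose GRCm38 symbol starts with Slc and whose DESeq2-normalized count averaged at least 500 over the 12 libraries were taken, without Slc2a1, Slc7a5, Slc3a2, Slc7a1, Slc16a1, Slco1a4, Slco1c1, Slc22a8, Slc38a5 and Slc6a6. The normalized table held 394 Slc genes among 54331 genes, of which 232 lay under that mean and 10 were left out by name. The mean level chose the genes and is therefore a description. The genes just inside it were Slc35d1 (502), Slc2a3 (504) and Slc25a38 (506), and the genes just outside were Slc25a27 (493), Slc2a4rg-ps (492) and Slc24a3 (487). For 15 of the 152 genes the mean over the other groups was under 500 when 1 group was set aside, among them Slc15a3, Slc39a14, Slc2a6, Slc7a6, Slc7a8, Slc15a2 and Slc4a8 without LPS 4 h, Slc6a7, Slc9a5 and Slc25a42 without LPS 15 min, and Slc35e3 without LPS 30 min. The other 4 fell under 500 without either of a pair of groups. These were LPS 15 min and LPS 4 h for Slc2a3, LPS 30 min and LPS 4 h for Slc35d1, LPS 15 min and LPS 30 min for Slc25a38, and PBS and LPS 15 min for Slc38a9.

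C57BL6 wild-type mice of both sexes, 2 to 3 months old, received lipopolysaccharide (LPS) from E. coli, a component of the bacterial outer membrane that drives systemic inflammation, by intraperitoneal injection at 10 mg/kg. They were killed 15 min, 30 min or 4 h later, and control mice received PBS. Vessels of the forebrain, freed of meninges after perfusion with cold PBS, were collected by homogenization, dextran centrifugation and a mesh. Each of the 4 groups held 3 libraries, with the vessels of 1 male and 1 female pooled in every library. The injection time of day and the killing time of the PBS mice are not given in the sources used here. The 3 LPS groups were compared with the same 3 PBS libraries.

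Solute carriers are membrane proteins that move ions, nutrients, metabolites and metals down a gradient or against one by coupling to sodium, protons or an exchanged substrate. In brain vessels they stand in the luminal and abluminal membranes of endothelial cells and in the cells around them, where they set which amino acids, sugars, vitamins, hormones and ions cross between blood and brain. Others sit inside the cell, in mitochondria, lysosomes or the Golgi apparatus. The names starting with Slc also cover genes that carry nothing themselves, such as Slc9a3r1 and Slc9a3r2, PDZ scaffolds of a sodium-proton exchanger. The 152 genes were sorted by symbol into 12 substrate classes, the longest matching start of a symbol or a whole symbol deciding. Some families are therefore split, such as Slc6a, with Slc6a20a among amino acid and Slc6a13 among neurotransmitter transporters.

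Libraries held 18.3 to 25.9 M fragments, and edgeR put the biological coefficient of variation common to all genes at 0.0524. Levels of a gene in a library are given as CPM, counts scaled to library size and TMM factors, and levels are compared between genes as TPM, which corrects for length. TMM factors averaged 1.17 in PBS and 0.717 at LPS 4 h. Scaling by library size alone moved the median change of all genes at 4 h from −0.01 to −0.71 on the log2 scale. Sums of TPM over marker genes carry no TMM factor, so they can move between groups otherwise than the TMM-scaled changes. The 8 endothelial markers summed to a TPM of 5068 to 5242 in PBS, led by Cldn5 (3189), and 1539 to 1586 at 4 h. By edgeR 5 were called lower and 2 higher at 4 h. Their TMM-scaled log2 changes ran from −2.58 (Tek) to 1.96 (Cdh5), with a median of −1.22. Choroid plexus markers, led by Ttr, summed to 16683 to 17392 in PBS, so the preparation held RNA of choroid plexus epithelium as well. Red cell markers summed to 9737 to 10963 in PBS and 16270 to 17086 at 4 h, with all 5 called higher. Neutrophil markers summed to at most 16.2 in PBS and at least 546 at 4 h, with all 4 that were tested called higher, and Ly6g was at 0 in the PBS and 15 min libraries. In bulk RNA, fewer cells of a type and less RNA per cell cannot be told apart. The p-values measure the spread between these pooled libraries.

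Over the 12 libraries the scaffold gene Slc9a3r2 had the highest level of the 152 genes, at a mean TPM of 557. The next were Slc22a17 (392), a receptor for lipocalin 2, the mitochondrial phosphate carrier Slc25a3 (319), the glutamine transporter Slc38a3 (219.5) and the ADP/ATP carriers Slc25a5 (194) and Slc25a4 (187). They were followed by Slc50a1 (138), a sugar transporter of the SWEET family, the anion exchanger Slc4a2 (105), the proline and betaine transporter Slc6a20a (86.1) and Slc39a7 (85.0), which releases zinc from the endoplasmic reticulum. Of these 10 genes, Slc9a3r2, Slc38a3 and Slc50a1 fell at 4 h, and the other 7 did not pass the threshold at any time. In the PBS libraries alone the TPM of Slc9a3r2 was 742, that of Slc22a17 442 and that of Slc25a3 338, and the lowest mean over all libraries was that of Slc30a10 (2.36). Of the exon bases of Slc39a7, 80.7% also belong to Gm20427 on the same strand, so its level may include reads of that locus.

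**Figure D1:**
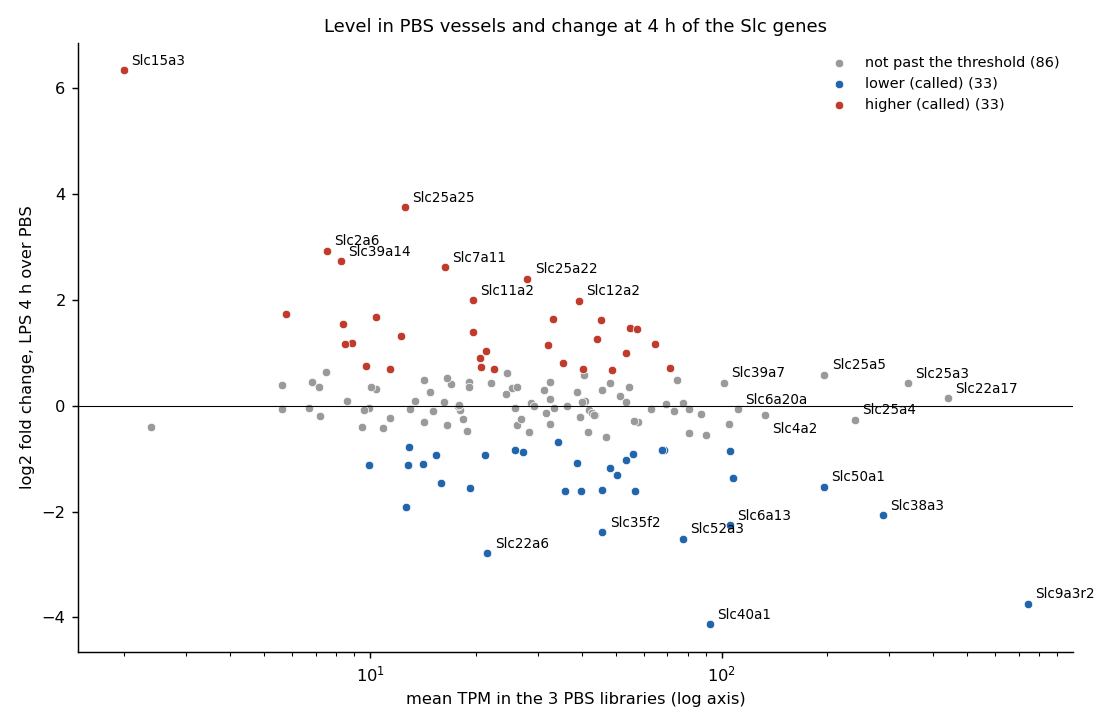
Mean TPM in the 3 PBS libraries (log axis) and log2 fold change of LPS 4 h over PBS for each of the 152 genes, coloured by the call at 4 h. The highest gene, Slc9a3r2, fell by 3.74 on the log2 scale, while the largest rise was that of Slc15a3, whose TPM in PBS was 1.99.

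Of the 152 genes, 12 passed the threshold at 15 or 30 min and 66 at 4 h. The test was edgeR's glmTreat against a change of 1.5-fold, with p adjusted by Benjamini and Hochberg across the 19150 genes that passed the count filter, and a gene was called under 0.05. At 15 min 9 genes were called, against 4.25% of all genes tested, 7 higher (3.35% of all genes) and 2 lower (0.898%). At 30 min 5 were called, against 4.62% of all genes, 4 higher (3.8%) and 1 lower (0.815%). At 4 h 66 were called, against 33.0% of all genes and 38.4% of genes with a mean of at least 500, 33 of them higher (19.1% of all genes) and 33 lower (13.9%). Between 15 and 30 min 7 genes changed, against 4.76% of all genes, 3 upward (2.77%) and 4 downward (1.99%). Between 30 min and 4 h 60 changed, against 28.9% of all genes, 29 upward (17.0%) and 31 downward (11.9%). Without the 15 genes that needed 1 group to reach the mean, 6 of 137 were called at 15 min, 4 at 30 min and 58 at 4 h, with 27 of the last higher and 31 lower. The median change of the 152 genes at 4 h was −0.01, and that of all genes was also −0.01. Libraries of LPS 4 h and PBS did not overlap for 124 of the 152 genes, against 70.9% of all genes. The 2 shares are not like for like, since the 152 genes were chosen for a high mean. Their median SE at 4 h was 0.0555, against 0.106 over all genes. The 158 tested Slc genes under the mean had 48 calls at 4 h, 22 higher and 26 lower, and 8 of the 10 genes left out by name fell, with a median of −1.54.

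Over the 3 times 71 genes were called at least once and 81 at none. Slc25a25 and Slc15a2 rose at all 3 times, Slc20a1 rose at 15 min and 4 h, and Slc38a2 rose at 30 min and 4 h. Slc17a7, Slc12a5, Slc6a7 and Slc2a3 rose at 15 min alone and Slc25a33 at 30 min alone. Slc6a13 and Slc13a3 fell at 15 min and 4 h, and Slc40a1 fell at 30 min and 4 h. The other 59 genes were called at 4 h alone.

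Slc25a25, which encodes a calcium-regulated carrier that exchanges ATP-Mg for phosphate across the inner mitochondrial membrane, was the largest early change. Its PBS libraries held 23.0, 24.7 and 23.6 CPM, and the 15 min libraries held 46.2, 45.2 and 44.6. At 30 min the values were 152, 149.6 and 146, and at 4 h 322, 317 and 316. The groups did not overlap at any step. The log2 change was 0.93 ± 0.04 (SE) at the first time, with an adjusted p of 1.12e-07. It reached 2.65 ± 0.04 at the next (adjusted p = 4.14e-23) and 3.74 ± 0.04 at 4 h, a 13.4-fold level (adjusted p = 2.03e-27). Its paralog Slc25a24, of the same calcium-regulated subgroup, went the other way at 4 h, with 38.4, 40.2 and 41.5 CPM in PBS and 15.0, 12.4 and 13.7 at 4 h (log2 change −1.55, SE 0.08, adjusted p = 3.69e-11).

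Slc25a25 is transcribed from several starts, and the Salmon estimates divided its rise between them. The leading transcript, from the upstream start, averaged a TPM of 10.3 in PBS, 18.2 at 15 min, 43.7 at 30 min and 62.2 at 4 h. A transcript from a start inside the gene ranged from 0.184 to 0.878 in PBS, 12.5 to 14.5 at 30 min and 17.4 to 21.5 at 4 h, and held 18.6% to 22.3% of the TPM of the gene at 4 h. These transcript values share reads, carry no TMM factor and were not tested.

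The promoter bases of Slc25a25 and Slc38a2, the 2 largest rises at 30 min, and of Slc9a3r2, the largest fall at 4 h with an entry, are shown as the stretch of each gene nearest its transcription start. Sequences are the 250 bases before the start in the RefSeq table for GRCm38.p6, which held an entry for 118 of the 152 genes, printed 5′ to 3′ on the strand of the gene. Capitals mark letters of 8 motifs searched on both strands: AP-1 TGANTCA, CRE TGACGTCA, kappaB, antioxidant response TGACNNNGC, E-box CACGTG, metal response TGCGCNC, GC box GGGCGG and TATAAA. The first sequence is chr2:32451471-32451720 (minus strand) and lies before the upstream start of Slc25a25. The second is chr2:32424067-32424316 (minus strand) before its inner start, and was chosen after the transcript levels were seen. The third and the fourth are chr15:96699729-96699978 (minus strand) and chr17:24650306-24650555 (minus strand).
Slc25a25, upstream start: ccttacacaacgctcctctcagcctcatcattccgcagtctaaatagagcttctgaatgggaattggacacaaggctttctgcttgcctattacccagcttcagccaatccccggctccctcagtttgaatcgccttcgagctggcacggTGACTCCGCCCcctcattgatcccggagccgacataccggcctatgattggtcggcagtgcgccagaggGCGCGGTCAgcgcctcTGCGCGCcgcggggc
Slc25a25, inner start: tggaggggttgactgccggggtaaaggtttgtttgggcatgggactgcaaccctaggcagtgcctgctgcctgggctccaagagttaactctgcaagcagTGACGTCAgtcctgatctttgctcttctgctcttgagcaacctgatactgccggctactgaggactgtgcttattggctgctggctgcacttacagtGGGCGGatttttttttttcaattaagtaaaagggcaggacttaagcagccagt
Slc38a2: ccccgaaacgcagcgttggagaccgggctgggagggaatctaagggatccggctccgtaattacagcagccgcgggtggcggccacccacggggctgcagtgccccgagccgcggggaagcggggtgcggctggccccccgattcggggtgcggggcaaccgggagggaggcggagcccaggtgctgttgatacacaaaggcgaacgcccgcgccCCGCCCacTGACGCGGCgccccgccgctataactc
Slc9a3r2: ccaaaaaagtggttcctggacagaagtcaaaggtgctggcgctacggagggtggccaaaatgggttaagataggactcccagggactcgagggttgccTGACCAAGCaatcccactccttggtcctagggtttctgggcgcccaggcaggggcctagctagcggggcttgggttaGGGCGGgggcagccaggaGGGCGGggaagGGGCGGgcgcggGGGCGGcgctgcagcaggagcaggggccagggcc

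The upstream start of Slc25a25 held a pair of antioxidant response matches, 1 of them overlapping a GC box, and a metal response match. The inner start held the palindromic CRE letters 150 bases upstream and a GC box. Slc38a2 held an antioxidant response match and a GC box, and the start shown of Slc9a3r2 an antioxidant response match and 4 GC boxes. RefSeq held 3 starts of Slc25a25 and 2 of Slc9a3r2. The start of Slc9a3r2 not shown held AP-1 letters. Over the 32851 promoters of the table, the antioxidant response letters were in 10.2%, the CRE in 1.55%, the metal response letters in 12.5% and the GC box in 32.7%. AP-1 letters were in 6.75%, kappaB in 0.356%, the E-box in 6.02% and TATAAA in 12.4%. A match is a run of letters and not a binding site.

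Slc38a2, the sodium-coupled neutral amino acid transporter SNAT2, had 135, 135 and 126 CPM in PBS, 193, 197 and 198 at 15 min, 299, 309.6 and 303 at 30 min and 385, 421 and 412 at 4 h. The 15 min libraries already lay above all PBS libraries, but the change of 0.57 (SE 0.03) did not pass the 1.5-fold test (adjusted p = 1). At 30 min it was 1.20 ± 0.03 (adjusted p = 4.90e-14), and at the last time 1.62 ± 0.03 (adjusted p = 3.24e-19). Slc15a2, the proton-coupled oligopeptide transporter PEPT2, had 12.5, 12.5 and 12.4 CPM in PBS, 23.6, 22.8 and 25.7 at 15 min, 26.8, 28.0 and 27.7 at 30 min and 42.0, 40.0 and 37.8 at 4 h. Its changes were 0.94, 1.14 and 1.68 (adjusted p = 1.04e-04, 1.94e-07 and 1.66e-13). The length-corrected normalized table gave changes of Slc15a2 of 0.55 at 15 min and 0.93 at 30 min with limma and a pseudocount of 10 (adjusted p = 1 and 0.094), so that both early calls were lost there. In edgeR with the transcript length offset its call at 15 min was lost as well.

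Slc20a1, the sodium-phosphate cotransporter PiT-1, had 80.8, 80.6 and 81.5 CPM in PBS and 128, 136 and 133 at 15 min, 113, 109 and 108 at 30 min and 180.2, 179.9 and 181 at 4 h. The change of 0.71 at 15 min passed (SE 0.03, adjusted p = 1.90e-03), as did 1.16 at 4 h (adjusted p = 2.17e-14), while 0.44 at 30 min did not. Its call at 15 min was lost with the transcript length offset (adjusted p = 0.116) and with DESeq2's parametric trend (0.106). It was also lost with limma on the normalized table and either pseudocount (adjusted p up to 0.940). The call at 4 h was lost with library size alone (change 0.45). The related Slc20a2, PiT-2, had a log2 change of −0.59 at 15 min (adjusted p = 1) and 0.06 at 4 h. Slc20a1 alone was called at 4 h among the 3 phosphate transporters, and with library size alone the other 2, Slc20a2 and Slc37a3, fell. Slc25a33, a mitochondrial carrier of pyrimidine nucleotides, had 17.8, 22.3 and 20.5 CPM in PBS and 35.0, 37.2 and 40.7 at 30 min (log2 change 0.90, SE 0.08, adjusted p = 2.14e-03), and 22.7, 26.4 and 27.7 at 4 h. The 30 min call of Slc25a33 was lost with library size alone (adjusted p = 0.160) and on the normalized table with a pseudocount of 10 (adjusted p = 0.157).

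**Figure D2:**
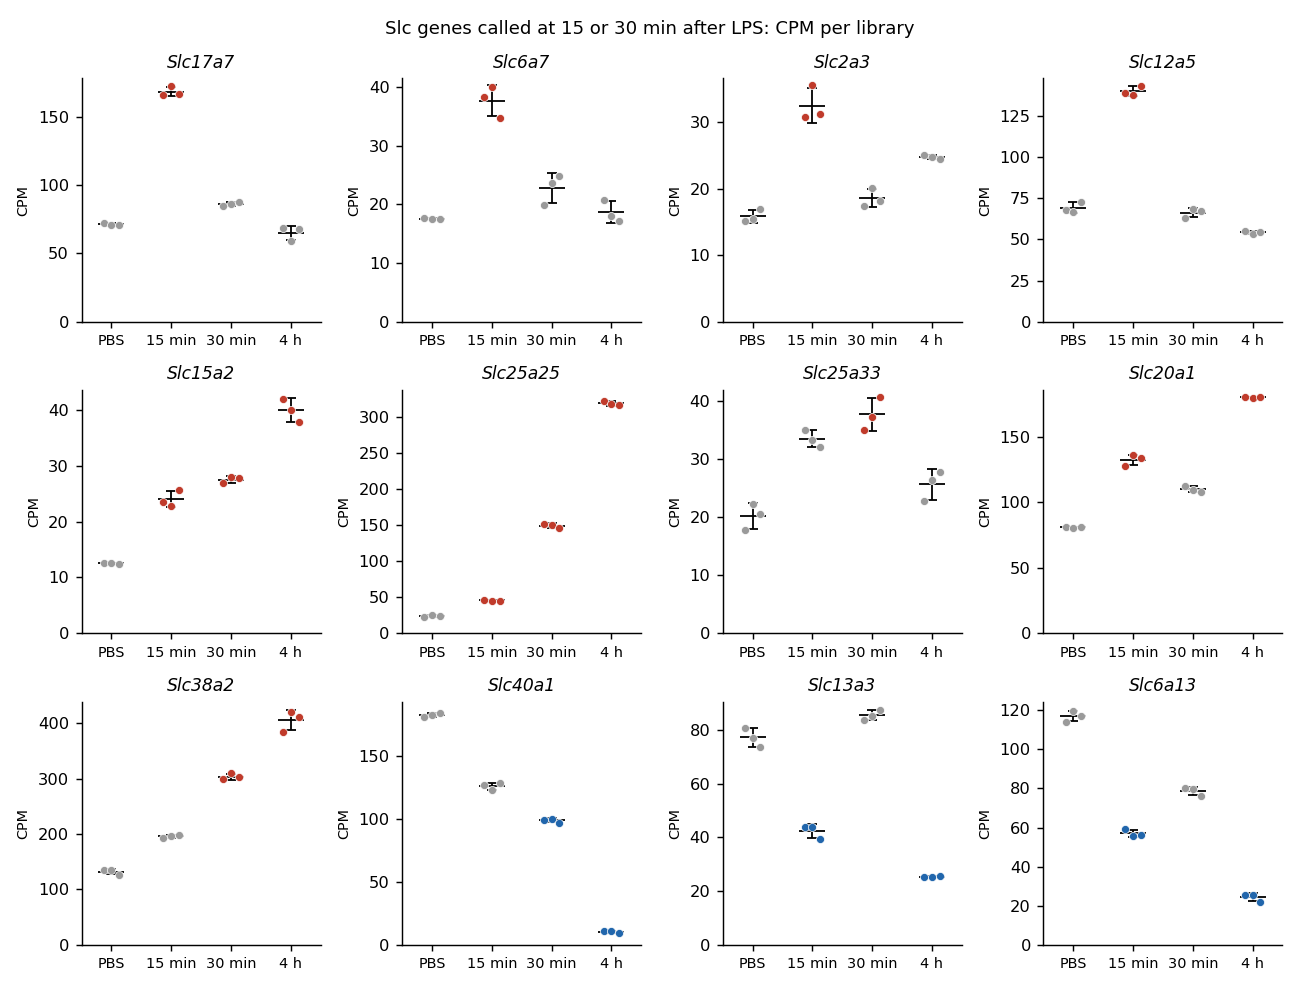
CPM of the 12 genes called at 15 or 30 min, one panel a gene, with a point for each library, a bar at the group mean and error bars of 1 SD (n = 3). Red marks groups called higher than PBS and blue groups called lower. Slc25a25 was at 23.0 to 24.7 CPM in PBS and 316 to 322 at 4 h, Slc17a7 and Slc12a5 were high at 15 min alone, and Slc13a3 was low at 15 min and 4 h but not at 30 min.

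The 4 genes that rose at 15 min alone are all known from neurons, and Slc6a7 and Slc2a3 were under the mean of 500 without the 15 min group, so that their place among the 152 rests in part on this rise. Slc17a7, the vesicular glutamate transporter VGLUT1, had 72.7, 70.9 and 70.7 CPM in PBS and 166, 173 and 167 at 15 min, and 85.0, 86.3 and 87.4 at 30 min (log2 change at 15 min 1.24, SE 0.04, adjusted p = 2.06e-12). Slc12a5, the potassium-chloride cotransporter KCC2, went from 68.2, 66.6 and 73.1 CPM to 139, 138 and 143 and was at 63.3, 68.4 and 67.3 at 30 min (log2 change at 15 min 1.02, adjusted p = 2.85e-09). Slc6a7, a brain proline transporter, went from 17.6, 17.6 and 17.5 CPM to 38.2, 39.9 and 34.7 (log2 change 1.10, adjusted p = 8.21e-06). Slc2a3, the glucose transporter GLUT3, went from 15.1, 15.5 and 16.9 CPM to 30.8, 35.6 and 31.2 (log2 change 1.04, adjusted p = 1.56e-05), and on the normalized table it missed the threshold (limma, pseudocount 10, adjusted p = 0.087). The sodium-calcium exchanger Slc8a2 had 31.9, 28.3 and 27.4 CPM in PBS and 45.3, 45.2 and 47.2 at 15 min, a change of 0.65 that did not pass (adjusted p = 0.545).

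The 5 neuron markers, none at 0, summed to a TPM of 227 to 240 in PBS and 244 to 254 at 15 min. Their sums were 153 to 156 at 30 min and 65.8 to 69.6 at 4 h. By edgeR 1 of 5 was called higher at 15 min (median log2 change 0.19) and 2 lower at 4 h (median −0.59). Their part in the rise of these genes was not tested. Much of the signal of Slc17a7 and Slc12a5 lay in transcripts annotated as retaining an intron or otherwise not coding. Coding transcripts held 44.4% to 65.2% of the TPM of Slc17a7 in PBS and 31.4% to 46.7% at 15 min. For Slc12a5 the share was 22.4% to 26.7% in PBS and 20.6% to 23.4% at 15 min, and for Slc6a7 all TPM lay in coding transcripts in every library.

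Slc6a13 and Slc13a3 fell at 15 min and at 4 h and were not called at 30 min. Slc6a13, the GABA and taurine transporter GAT2, had 114, 119 and 117 CPM in PBS, 59.1, 55.9 and 56.3 at 15 min, 80.0, 80.0 and 76.2 at 30 min and 25.4, 25.7 and 22.1 at 4 h. Its log2 changes were −1.03 (SE 0.04, adjusted p = 5.62e-09), −0.57 (adjusted p = 1) and −2.26 (adjusted p = 4.64e-19). Slc13a3, a sodium-dependent dicarboxylate transporter, had 80.7, 77.2 and 73.8 CPM in PBS, 43.9, 43.8 and 39.5 at 15 min, 83.9, 85.2 and 87.5 at 30 min and 25.4, 25.4 and 25.5 at 4 h. Its change of −0.86 ± 0.05 (SE) after 15 min passed (adjusted p = 2.47e-05), as did −1.60 at the last time (adjusted p = 1.11e-14), and the 30 min libraries lay above all PBS libraries. Slc22a6, the organic anion transporter OAT1, had a change of −0.71 at 15 min that missed the threshold (adjusted p = 0.077) and was called with the size factors of DESeq2 in edgeR, with library size alone and without PBS replicate 3. Fibroblast markers, 5 genes, summed to a TPM of 219 to 229 in PBS, 175 to 182 at 15 min, 169 to 171 at 30 min and 101 to 109 at 4 h, with 1 of 5 called lower at 15 min, 1 at 30 min and 2 at 4 h. Smooth muscle markers, 4 genes, summed to 1851 to 1861 in PBS, 1182 to 1199 at 15 min, 1429 to 1466 at 30 min and 952 to 976 at 4 h. Of these 3 were called lower at 15 min (median log2 change −0.71) and none at 30 min (−0.04) or 4 h (−0.19) by edgeR's glmTreat test. The part of either list in these falls was not tested.

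Slc40a1, ferroportin, the exporter of iron from cells, was the only gene of the 152 called lower at 30 min. It had 181, 183 and 185 CPM in PBS, 127, 123 and 129 at 15 min, 99.6, 100.3 and 97.2 at 30 min and 10.7, 10.99 and 9.63 at 4 h, so that each group lay below the one before. The log2 change was −0.54 at the first time, which did not pass (adjusted p = 1), and −0.89 ± 0.03 at 30 min (adjusted p = 2.75e-08). It was −4.13 ± 0.05 at 4 h (adjusted p = 1.09e-25), a level 17.5-fold lower than in PBS and the largest fall of all 152 genes at 4 h.

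The changes at 4 h are given by substrate class, each with the split that library size alone gave, because that scaling shifted the median of all genes. With library size alone 55.0% of all genes were called, 10.0% higher and 44.9% lower, and of the 152 genes 16 were higher and 80 lower. All 33 falls were also called with library size alone. That scaling moves the 4 h changes downward, as for Slc40a1 from −4.13 to −4.83, so a fall called under TMM could hardly be lost. The calls of the falls under both scalings are therefore no check on them. Of the 33 rises, 16 were called under both scalings, and 17 under TMM alone. The counts of rises include Slc15a3, Slc15a2, Slc7a6, Slc7a8, Slc2a6 and Slc39a14, which reached the mean of 500 through LPS 4 h alone and so were favoured by the choice of genes. Without the 7 genes of that kind, Slc4a8 being the other, 27 of 145 rose and 33 fell. Calls lost with the transcript length offset included those of Slc25a32, Slc25a37, Slc30a7, Slc38a6, Slc38a9, Slc39a3 and Slc6a8. On the normalized table with limma and either pseudocount these were lost as well, with Slc12a7 and Slc16a9 besides. Genes named in a class beyond its largest changes were chosen after their values were seen.

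**Figure D3:**
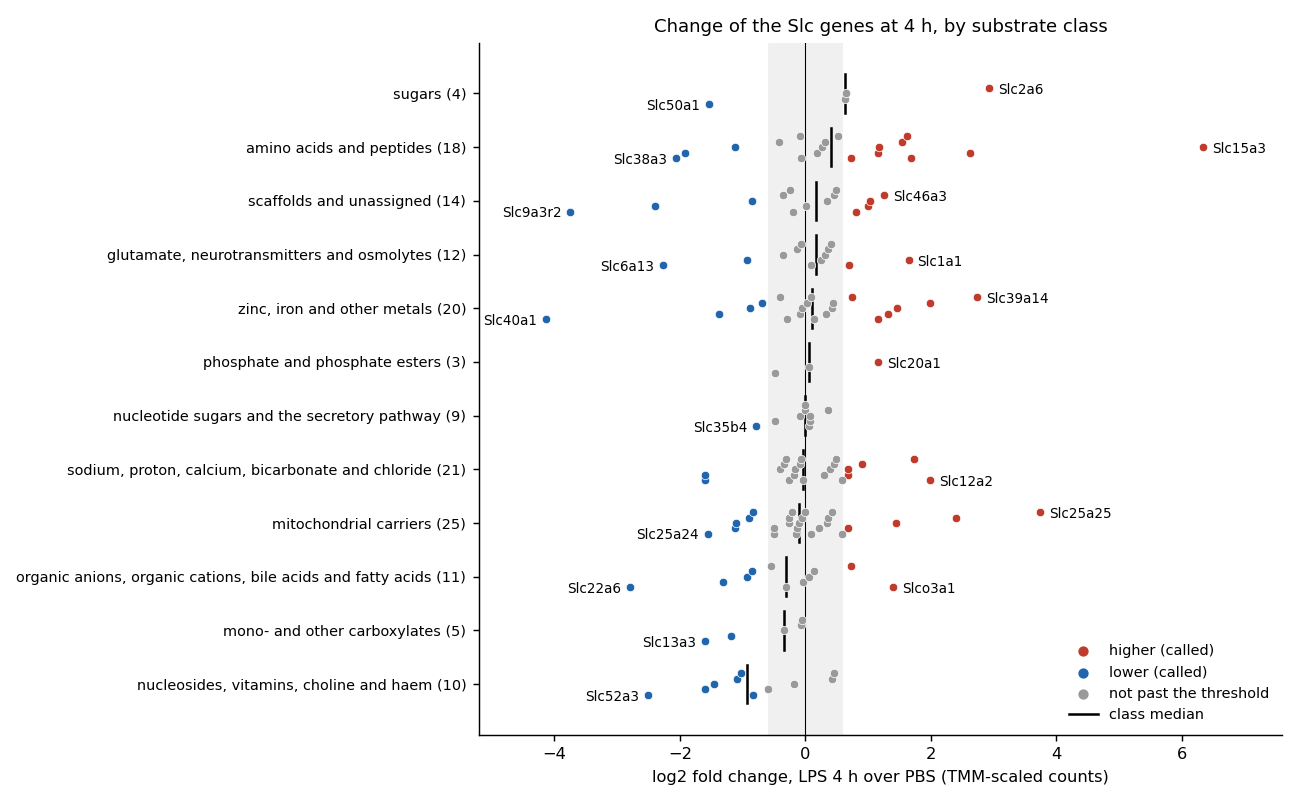
Log2 fold change of LPS 4 h over PBS for each of the 152 genes (1 point each), by substrate class, with the number of genes in brackets and a black bar at the class median. The shaded band is the 0.58 null of the test. Vitamin, nucleoside, choline and haem transporters had the lowest median, −0.93, and every class with more than 10 genes held points on both sides of 0.

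Of the 18 transporters of amino acids and peptides 8 rose, 3 fell and 7 did not pass the threshold at 4 h. Of the 8 rises 4, Slc15a3, Slc15a2, Slc7a6 and Slc7a8, are of genes that reached the mean through LPS 4 h alone, and among the other 14 genes 4 rose and 3 fell. With library size alone, 5 of the 18 rose and 6 fell. Slc15a3, an endolysosomal transporter of histidine and small peptides, had 3.30, 2.83 and 2.18 CPM in PBS, 1.59, 1.57 and 1.89 at 15 min, 3.12, 1.98 and 2.01 at 30 min and 224, 224 and 223 at 4 h. This was the largest rise of the 152 genes, 6.33 on the log2 scale (SE 0.09, adjusted p = 5.45e-25), and the gene reached the mean of 500 through this group alone. Of its exon bases 28.1% overlap Tmem132a on the other strand, which went from 113 to 189 CPM, and the library kit does not mark the strand. Slc7a11, the cystine-glutamate exchanger xCT, had 90.3, 86.8 and 86.4 CPM in PBS and 528, 536 and 552 at 4 h (log2 change 2.62, SE 0.03, adjusted p = 9.08e-25), with 64.1 to 69.3 at 15 min.

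Other rises among amino acid transporters were those of Slc38a2 and Slc15a2 given above, Slc7a6 (16.1 to 18.2 CPM in PBS, 47.9 to 53.5 at 4 h, log2 change 1.54), the cationic amino acid transporter Slc7a2 (1.17), Slc7a8 (1.15), the large neutral amino acid transporter LAT2, and Slc38a6 (0.72). With library size alone the last 3 kept a positive sign, at 0.47, 0.45 and 0.01, but were not called. Slc38a3, the glutamine transporter SNAT3, fell from 398, 409.5 and 411 CPM to 103, 90.8 and 97.1 (log2 change −2.07, SE 0.04, adjusted p = 1.29e-21), after 409 to 425 at 15 min and 417 to 436 at 30 min. Its level had been 288 TPM in PBS against 45.3 for Slc38a2, and at 4 h it was 35.2 against 74.2. Slc36a1, a proton-coupled amino acid transporter of lysosomes, fell from 40.1, 42.3 and 41.6 CPM to 10.6, 10.99 and 11.1 (log2 change −1.92, adjusted p = 2.46e-15). Slc38a9, an arginine sensor of the lysosome, changed by −1.13 (adjusted p = 1.14e-05), a call lost on the normalized table (limma, pseudocount 10, −0.71, adjusted p = 0.607).

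Among 12 transporters of glutamate, other neurotransmitters and osmolytes, 2 rose and 2 fell, and with library size alone 1 rose and 5 fell. Slc1a1, the neuronal and epithelial glutamate transporter EAAC1, had 73.5, 73.7 and 74.5 CPM in PBS, 114, 119.8 and 113 at 15 min, 97.8, 94.6 and 94.2 at 30 min and 223, 239.7 and 229.8 at 4 h (log2 change 1.64, SE 0.04, adjusted p = 6.60e-19). Of its exon bases 31.9% overlap 4430402I18Rik on the other strand, which was at 3.98 CPM in PBS and 6.63 at 4 h. The creatine transporter Slc6a8 changed by 0.70 (adjusted p = 3.14e-03), which was −0.01 with library size alone, where its sign turned. Slc6a13 (−2.26) and the glycine transporter Slc6a9 (−0.93, adjusted p = 2.37e-05) fell, and 30.2% of the exon bases of Slc6a9 are shared, mostly with Ccdc24 on the other strand (17.4 CPM in PBS and 20.6 at 4 h). The astrocyte glutamate transporters Slc1a2 and Slc1a3 had changes of 0.36 and 0.25 that did not pass. Astrocyte markers summed to 230 to 246 TPM in PBS and 270 to 289 at 4 h, with 3 of 6 called higher and 1 lower.

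Sugar transporters were 4 in number. Slc2a6, GLUT6, a transporter of intracellular membranes, had 9.85, 9.72 and 9.31 CPM in PBS and 76.2, 67.9 and 75.2 at 4 h (log2 change 2.92, SE 0.08, adjusted p = 7.96e-18), and reached the mean through LPS 4 h alone. Slc50a1 had 98.8, 107 and 103 CPM in PBS, 77.5, 81.1 and 86.7 at 30 min and 34.3, 36.2 and 36.1 at 4 h (log2 change −1.53, SE 0.05, adjusted p = 1.06e-14). Slc2a12 and Slc2a3 had changes of 0.62 and 0.64 that did not pass the test (adjusted p = 0.150 and 0.202).

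Of 5 carboxylate transporters, Slc13a3 and Slc16a4, a member of the monocarboxylate transporter family, fell at 4 h, and with library size alone all 5 did. Slc16a4 had 63.8, 58.3 and 61.8 CPM in PBS and 25.4, 29.3 and 26.1 at 4 h (log2 change −1.18, adjusted p = 2.94e-10). Slc16a11, the highest of the class at 105 TPM in PBS, had a change of −0.35 (adjusted p = 1).

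Of 10 transporters of vitamins, nucleosides, choline and haem 6 fell at 4 h and the other 4 did not pass, and 8 fell with library size alone. Slc52a3, a riboflavin transporter, had 118, 116 and 112 CPM in PBS, 104, 99.0 and 96.2 at 30 min and 17.3, 21.5 and 21.5 at 4 h (log2 change −2.51, SE 0.06, adjusted p = 2.71e-19). Its paralog Slc52a2, also a riboflavin transporter, had 37.8, 35.4 and 40.1 and 15.0, 11.7 and 14.8 (log2 change −1.45, adjusted p = 3.82e-10). Slc19a1, the reduced folate carrier, had 70.0, 73.9 and 67.6 CPM in PBS and 22.7, 23.4 and 23.5 at 4 h (log2 change −1.60, SE 0.05, adjusted p = 6.30e-15). Slc5a6, the sodium-dependent multivitamin transporter, changed by −1.09, the equilibrative nucleoside transporter Slc29a1 by −1.02 and the haem transporter Slc48a1 by −0.83 (adjusted p = 4.88e-08, 1.16e-06 and 8.28e-07). The thiamine transporter Slc19a3 (0.42), the ascorbate transporter Slc23a2 (0.45) and the choline transporters Slc44a1 (−0.17) and Slc44a2 (−0.60) did not pass. No gene of the class was called at 15 or 30 min by edgeR's glmTreat test, where 8 of 10 had an unadjusted p below 0.05 against no change at each time, beside 105 and 103 of the 152 genes and 46.0% and 44.5% of all genes. Of the 8 endothelial markers 5 were called lower and 2 higher at 4 h in the same libraries, and their part in these falls was not tested.

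Among 11 transporters of organic anions, organic cations, bile acids and fatty acids, 2 rose and 4 fell at 4 h, against 1 and 7 with library size alone. Slc22a6 had 53.2, 55.0 and 48.7 CPM in PBS, 32.7, 32.8 and 30.5 at 15 min, 48.1, 49.1 and 48.9 at 30 min and 6.94, 8.12 and 7.58 at 4 h (log2 change −2.79, SE 0.08, adjusted p = 4.61e-18). Slco2b1, an organic anion transporting polypeptide, had 136, 139 and 129.9 CPM in PBS and 58.7, 52.9 and 52.3 at 4 h (log2 change −1.31, adjusted p = 2.06e-13), while Slco3a1 of the same superfamily rose from 36.8, 35.5 and 36.5 to 91.5, 98.2 and 95.8 (log2 change 1.39, adjusted p = 1.41e-13). The other rise was that of Slc16a9 (0.73), lost without LPS 4 h replicate 3. The fatty acid transport protein Slc27a4 changed by −0.93 (adjusted p = 1.52e-05). Slc22a17 had 587, 601 and 584 CPM in PBS and 677, 621 and 649 at 4 h, a change of 0.14 (adjusted p = 1).

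Transporters of zinc, iron, copper and other metals numbered 20, of which 6 rose, 4 fell and 10 did not pass at 4 h, against 3 higher and 8 lower with library size alone. Slc11a2, the divalent metal transporter DMT1, had 39.0, 32.9 and 35.2 CPM in PBS, 45.0, 43.9 and 46.0 at 15 min, 40.5, 41.1 and 36.0 at 30 min and 145, 137 and 143 at 4 h (log2 change 1.99, SE 0.06, adjusted p = 3.59e-17). Slc39a14, ZIP14, which takes up zinc and iron, had 17.8, 20.0 and 19.7 CPM in PBS and 128, 128 and 126 at 4 h (log2 change 2.73, SE 0.07, adjusted p = 2.15e-19), and reached the mean through LPS 4 h alone. Both were also called with library size alone, at 1.29 and 2.03. The mitochondrial iron carriers Slc25a28 and Slc25a37 also rose, by 1.45 (adjusted p = 1.62e-15) and 0.68 (adjusted p = 0.031). The change of Slc25a37 was −0.02 with library size alone, where its sign turned, and its call was also lost with DESeq2 and without any 1 of PBS replicate 1, PBS replicate 3 or LPS 4 h replicate 2. Red cell markers rose in the same libraries, all 5 being called higher at 4 h, and their part in these changes was not tested.

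Members of the zinc importer family moved in both directions. Slc39a1, ZIP1, rose from 75.0, 73.9 and 74.3 CPM to 208, 205 and 201 (log2 change 1.46, SE 0.04, adjusted p = 2.58e-17), while Slc39a10, ZIP10, fell from 306, 320.2 and 314 to 123, 118 and 123 (log2 change −1.37, SE 0.03, adjusted p = 2.90e-18). Falls were also called for Slc39a3 (−0.88) and for Slc39a8 (−0.70), ZIP8, which takes up iron as well as zinc and manganese. That of Slc39a3 was lost with the transcript length offset and with limma on the normalized table, and that of Slc39a8 with DESeq2 and without LPS 4 h replicate 3. The zinc exporters of vesicles and the Golgi apparatus Slc30a4 (1.32) and Slc30a7 (0.74) and the copper transporter Slc31a2 (1.15) rose, and with library size alone they were at 0.62, 0.04 and 0.45 and not called. Slc30a1, the zinc exporter of the plasma membrane, had 252 to 264 CPM in PBS, 352 to 366 at 15 min, 362 to 385 at 30 min and 242 to 258 at 4 h, and its changes of 0.47 and 0.53 at the early times did not pass. Slc30a10, a manganese exporter, varied widely between libraries of a group, from 1.99 to 14.1 CPM in PBS, and its change at 4 h was −0.41 (SE 0.55) in the summed counts and −1.57 in the normalized table.

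**Figure D4:**
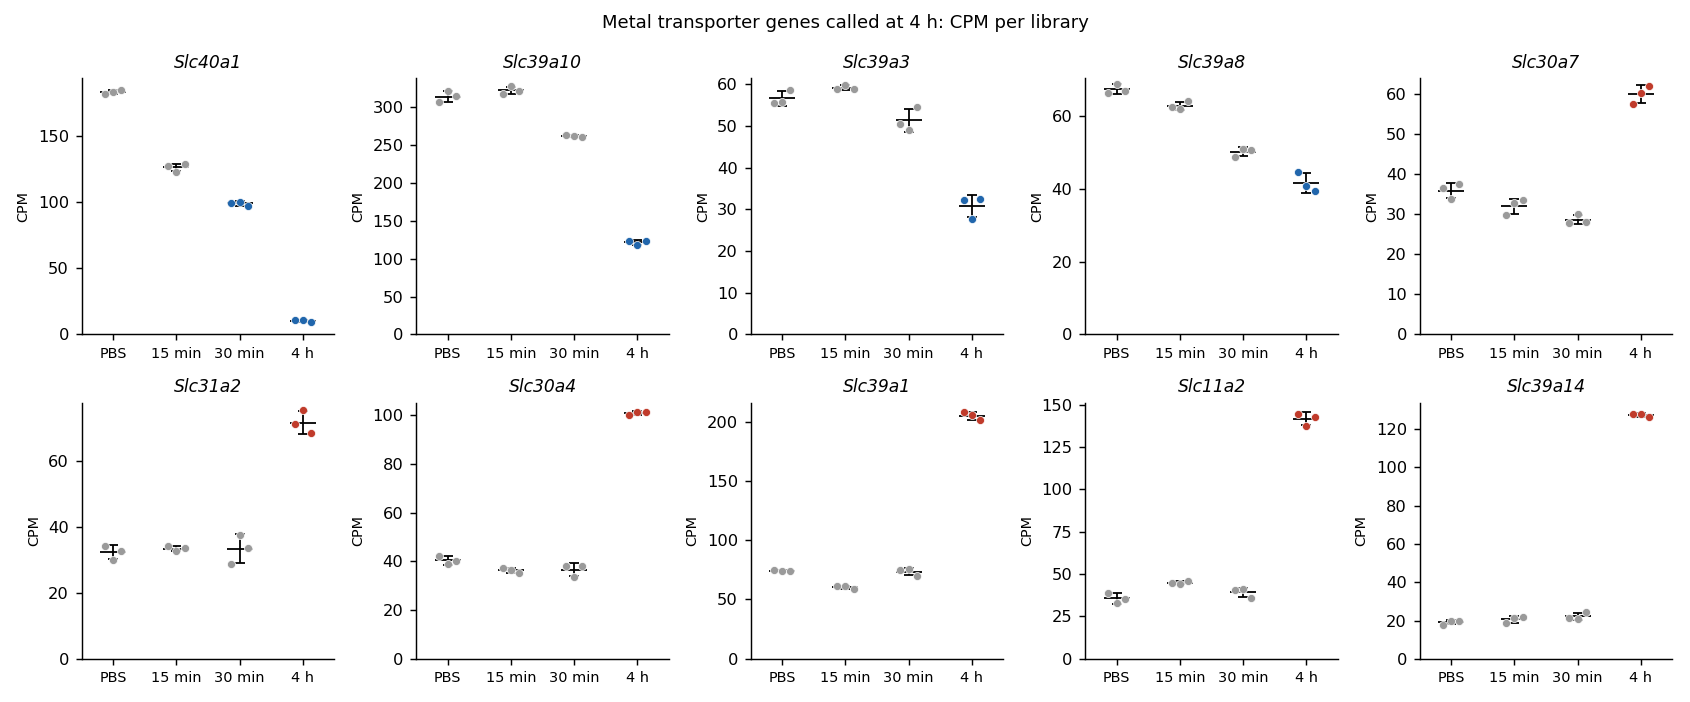
CPM of the 10 metal transporter genes called at 4 h, one panel a gene, with a point for each library, a bar at the group mean and error bars of 1 SD (n = 3). Red and blue mark groups called higher or lower than PBS. Slc40a1 fell to 9.63 to 10.99 CPM at 4 h, while Slc11a2 and Slc39a14 were at 36.0 to 41.1 and 20.7 to 24.4 at 30 min and reached 137 to 145 and 126 to 128 at 4 h.

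Of 21 transporters of sodium, protons, calcium, bicarbonate, sulfate and chloride, 5 rose and 2 fell at 4 h, against 2 and 11 with library size alone. Slc12a2, the sodium-potassium-chloride cotransporter NKCC1, had 156, 159 and 162 CPM in PBS, 150.0, 150.1 and 150.1 at 15 min, 182, 185 and 195 at 30 min and 651, 613 and 625 at 4 h (log2 change 1.98, SE 0.03, adjusted p = 1.46e-22). Slc4a7, a sodium-bicarbonate cotransporter, rose from 24.5, 20.6 and 20.6 CPM to 68.9, 74.9 and 73.6 (log2 change 1.73, SE 0.07, adjusted p = 1.99e-13), and both Slc12a2 and Slc4a7 were called with library size alone.

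The sodium-proton exchanger Slc9a8 (0.91) and the potassium-chloride cotransporter Slc12a7 (0.67) rose by less, and were at 0.20 and −0.03 with library size alone, where the sign of Slc12a7 turned. Slc26a10, of the anion exchanger family, fell from 70.7, 64.6 and 67.4 CPM to 24.7, 21.2 and 21.4 (log2 change −1.59, adjusted p = 3.67e-14). In the Slc4a family Slc4a7 alone of 7 genes was called, and Slc4a2 (−0.17), Slc4a5 (0.29) and Slc4a10 (0.58) were among those that did not pass. The choroid plexus markers summed to a TPM of 14886 to 15954 at 4 h. Of these 6 markers 3 were called higher by edgeR (median log2 change 0.70), and their part in the rises and other values of this class was not tested.

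Mitochondrial carriers were the largest class, with 25 genes, of which 4 rose, 5 fell and 16 did not pass at 4 h, against 3 and 15 with library size alone. Slc25a22, a glutamate carrier, had 37.6, 42.1 and 40.7 CPM in PBS, 50.6, 49.5 and 52.7 at 15 min, 39.9, 36.1 and 42.4 at 30 min and 216, 205 and 214 at 4 h (log2 change 2.40, SE 0.05, adjusted p = 3.58e-20). The folate carrier Slc25a32 (−1.12), the coenzyme A carrier Slc25a42 (−1.10) and the oxoglutarate-malate carrier Slc25a11 (−0.91) fell beside Slc25a24, the call of Slc25a32 being lost with the transcript length offset and with limma on the normalized table. The abundant carriers of the class did not pass: the phosphate carrier Slc25a3 had 284, 284 and 283 CPM in PBS and 389, 377 and 376 at 4 h (0.42), and the ADP/ATP carriers Slc25a4 and Slc25a5 had changes of −0.27 and 0.58 (adjusted p = 1 and 0.461).

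The 9 transporters of nucleotide sugars and of the secretory pathway had changes at 4 h from −0.78 to 0.36. Slc35b4 alone was called, falling from 30.7, 33.3 and 32.9 CPM to 20.6, 19.6 and 16.3 (log2 change −0.78, SE 0.08, adjusted p = 7.48e-03), and without LPS 4 h replicate 3 its change of −0.68 did not pass (adjusted p = 0.093). With DESeq2's parametric trend it did not pass either (adjusted p = 0.086). Slc35a4, the highest of the class at 77.9 TPM in PBS, had a change of 0.06, and Slc35b1 (73.3 TPM) one of −0.09. With library size alone 5 of the 9 fell.

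The scaffold gene Slc9a3r2 had the second largest fall of the 152 genes. It had 795, 818 and 817 CPM in PBS, 831, 821 and 813 at 15 min, 933, 937 and 924 at 30 min and 58.4, 61.6 and 61.3 at 4 h. The groups overlapped at 15 min, the 30 min libraries lay above PBS, and the 4 h libraries lay far below all others. The log2 change at 4 h was −3.74 (SE 0.03, adjusted p = 1.33e-29), a level 13.4-fold lower. Its TPM, which carries no TMM factor, went from 742 to 32.7. Its paralog Slc9a3r1 rose from 55.3, 58.2 and 59.5 CPM to 121, 109.7 and 116 (log2 change 1.00, SE 0.05, adjusted p = 3.31e-09), or 0.30 and not called with library size alone.

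Among the other genes of unassigned substrate, Slc35f2 fell from 58.6, 58.7 and 60.9 CPM to 9.40, 12.7 and 11.7 (log2 change −2.39, SE 0.09, adjusted p = 2.08e-15) and Slc38a10 by 0.85 on the log2 scale. Slc46a3, a lysosomal transporter, rose from 40.3, 42.5 and 36.8 CPM to 94.9, 95.0 and 95.0 (log2 change 1.25, adjusted p = 4.36e-12). Slc45a4 rose by 1.03 and Slc7a6os, named for its place opposite Slc7a6, by 0.81, and with library size alone none of the last 3 was called. Of the 14 genes in this group 4 rose and 3 fell, against 7 lower and none higher with library size alone.

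**Figure D5:**
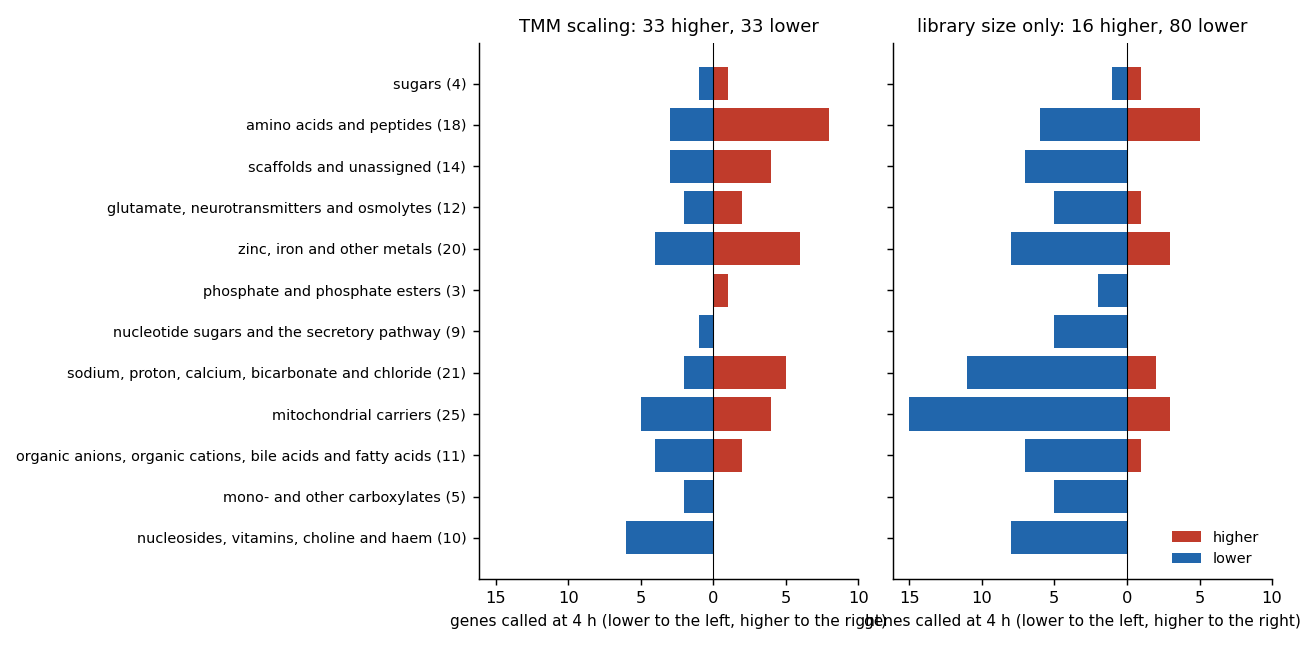
Number of genes called at 4 h in each substrate class, lower to the left and higher to the right, under TMM scaling (33 higher and 33 lower) and under scaling by library size alone (16 higher and 80 lower). The classes of vitamins and nucleosides, of carboxylates and of nucleotide sugars have only falls in both panels. Those of metals, ions, amino acids, phosphate and scaffolds have more rises than falls under TMM and more falls than rises under library size.

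Of 28 families with at least 2 of the 152 genes, 7 held calls in both directions at 4 h, and the widest gap was that between Slc25a25 and Slc25a24. In the Slc38a family Slc38a2 and Slc38a6 rose while Slc38a3, Slc38a9 and Slc38a10 fell. In the Slc39a family Slc39a14 and Slc39a1 rose while Slc39a10, Slc39a3 and Slc39a8 fell. Both genes of the riboflavin family Slc52a fell, and both of the peptide family Slc15a, which reached the mean of 500 through LPS 4 h alone, rose.

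The transcript with the highest TPM differed between PBS and 4 h in 14 of the 152 genes. The transcript of Slc45a4 that led at 4 h held a mean of 18.8% of the TPM of the gene in PBS and 52.9% at 4 h, with ranges of 10.4% to 26.3% and 42.4% to 61.3%. That of Slc39a8 went from 29.2% (26.5% to 31.2%) to 51.1% (39.1% to 67.7%), and that of Slc26a10 from 0 to 44.6% (34.8% to 56.7%). In Slc19a1 the share of the transcript that led in PBS went from 47.3% (38.1% to 52.3%) to 27.7% (17.3% to 36.1%). These are Salmon estimates from shared reads, and none was tested.

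Promoter letters were counted by the call at 4 h over all starts in the table, of which 30 belonged to 23 genes that rose, 42 to 24 that fell and 84 to 71 others. The antioxidant response letters were in 8 of the 30, 9 of the 42 and 15 of the 84. GC boxes were in 24 of 30, 20 of 42 and 51 of 84. The kappaB letters were found in a promoter of Slc6a13 alone. Promoters of a gene with several starts can overlap, and no test was made of these counts.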

How the data were processed

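Cerebral vessel RNA from 12 libraries in 4 groups was sequenced on an Illumina NovaSeq after SMART-Seq v4 amplification, which does not mark the strand. The authors quantified reads with Salmon 1.2.1 on GRCm38.p6, and deposited estimated counts and TPM per transcript for each library and 1 table of counts normalized by DESeq2, which carry the unit signal (counts divided by size factors after a transcript length correction). Here the expected counts were summed over the transcripts of each gene and rounded, and 0.482% to 0.850% of fragments lay on transcripts joined to no gene. Genes with enough counts in the smallest group (filterByExpr, minimum count 10, total 15), 19150 in number, were fitted with edgeR 4.0.16 (quasi-likelihood, TMM, all 12 libraries) and tested with glmTreat against a log2 change of 0.58. SE is the log2 change divided by the square root of its quasi-likelihood F. The normalized table was tested with limma 3.58.1 on log2 values plus 1 or plus 10, and DESeq2 1.42.0 was an alternative. Its parametric dispersion trend over all genes converged or failed with the number of computing threads, so a local trend was set and a parametric one on filtered genes was added, both after seeing the data. TPM served to compare levels between genes, to sum markers and to follow transcripts, and carries no TMM factor.

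The 152 genes, their classes and the marker lists were chosen with earlier results of these data known. Genes were named where called at 15 or 30 min, among the 12 largest rises or falls at 4 h, or leading in their class by change or level; others were chosen after their values were seen. Some genes counted in their classes are not reported here by name. Scripts were tested on simulated data. Sequences came from RefSeq for GRCm38.p6.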

Additional observations from a re-analysis of the deposited data

Results flagged for a closer look

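Between 15 and 30 min the change from PBS differed for 7 of the 152 genes in a direct test of the step (edgeR's glmTreat, adjusted p below 0.05), against 4.76% of all genes tested. The step, the log2 change at 30 min minus that at 15 min, was 1.72 for Slc25a25, 1.01 for the dicarboxylate transporter Slc13a3 and 0.74 for the sulfate transporter Slc13a4. It was −0.97 for Slc17a7, −1.08 for Slc12a5, −0.82 for the sodium-calcium exchanger Slc8a2 and −0.81 for Slc2a3. Slc13a4 and Slc8a2 were not called against PBS at either time. Between 30 min and 4 h the change from PBS differed for 60 of the 152 genes, 29 higher and 31 lower at 4 h, against 28.9% of all genes.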

How the results depend on the processing

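Without a fold limit 95 genes were called at 15 min (38 higher, 57 lower), 90 at 30 min (51 and 39) and 126 at 4 h (65 and 61), beside 38.6%, 36.9% and 68.5% of all genes. That setting called 92 between 15 and 30 min (51 and 41), beside 37.4% of all genes. Between 30 min and 4 h it called 128 (58 and 70), beside 65.3%. On the normalized table, limma with either pseudocount called 4 genes higher at 15 min, 2 higher and 2 lower at 30 min, and 4 between 15 and 30 min, 2 of them lower, and the DESeq2 fit with a parametric trend also called 2 lower there. Of all genes, limma plus 1 called 2.19% at 15 min, 2.96% at 30 min and 2.44% for that step. With plus 10 the shares were 2.10%, 2.76% and 2.29%, and with the parametric trend 3.32% for the step. With library size alone 3 genes were lower at 30 min, 96 were called at 4 h, 16 higher and 80 lower (55.0% of all genes called, 18.2% of those calls higher), and the step from 30 min to 4 h had 17 higher and 71 lower. Of all genes, this scaling called 4.66% at 30 min and 46.6% for that step. At 4 h the other alternatives called between 56 and 66 genes, the fewest with limma plus 1 or plus 10 (28.1% and 27.0% of all genes). DESeq2 called 63 with a local trend (10.0% of 54119 genes). With a parametric trend on filtered genes, added after seeing the data, it called 61 (27.3% of all genes). Without the filter on low counts 62 were called (20.4%), and with the transcript length offset 58 (31.2%).

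Leaving out 1 library gave 9 to 10 genes at 15 min (7 higher, 2 to 3 lower), 5 at 30 min (4 and 1), 62 to 66 at 4 h (31 to 33 in each direction), 6 to 7 between 15 and 30 min (3 higher, 3 to 4 lower) and 57 to 60 between 30 min and 4 h (28 to 29 and 29 to 32). Of all genes, these fits called 3.61% to 4.24% at 15 min, 4.00% to 4.52% at 30 min and 30.9% to 32.6% at 4 h. For the steps the shares were 3.94% to 4.73% and 27.0% to 28.6%. The lowest count at 4 h, 62, came without LPS 4 h replicate 3, where Slc16a9, Slc35b4 and Slc39a8 were among the genes that lost their calls. The step of Slc2a3 did not pass without LPS 15 min replicate 2 (−0.74) or LPS 30 min replicate 1 (−0.76) or 3 (−0.79).

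Samples with the same replicate number did not deviate together over all genes, the 18 correlations lying between −0.049 and 0.068. A deviation shared by few genes would not show in these correlations. With the replicate number as a block 9 genes were called at 15 min, 5 at 30 min, 66 at 4 h, 7 between 15 and 30 min and 60 between 30 min and 4 h, and no call at 15 min, 30 min or 4 h against PBS changed. Of all genes, that fit called 4.14%, 4.54%, 32.8%, 4.65% and 28.5% in the same order. For single named genes 37 alternative values kept their direction and lost the call, and 1941 kept both. The cause was not tested. With 3 libraries a group, changes near 1.5-fold could not be told from that limit.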
